A study of Mus musculus with 12 samples.

Results

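Described here is the transforming growth factor beta (TGF-beta) family of secreted signals, with their receptors and antagonists. The samples were mouse epidermal material taken before and after wounding. An array probe set is a group of probes for 1 transcript. The members were all probe sets whose RefSeq accession maps to a symbol beginning with Tgfb, Bmp, Gdf, Inha, Inhb, Acvr, Smad, Ltbp, Fst, Nog, Grem, Chrd, Nodal, Lefty or Amh. They came to 40 probe sets for 38 genes, of 1246 probe sets in all, of which 963 were named (909 genes). They comprised 3 TGF-beta ligands, 10 bone morphogenetic protein (BMP) ligands, 10 probe sets for 9 growth and differentiation factors (GDF), 2 activin or inhibin subunits (Inhbc, Inhbe), 5 type I receptors, 5 probe sets for 4 type II receptors, the coreceptor Tgfbr3, the proteinase Bmp1 and the 3 secreted antagonists Fst, Nog and Chrd. No named probe set fell under Smad, Ltbp, Inha, Grem, Nodal, Lefty or Amh, so the intracellular mediators were not analysed here.

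TGF-beta family ligands are dimers that bring a type II receptor kinase together with a type I receptor kinase, which then passes the signal to Smad transcription factors. Follistatin, the product of Fst, binds activins and holds them away from their receptors, while noggin and chordin, the products of Nog and Chrd, do the same to BMPs. In skin, TGF-beta is known to restrain keratinocyte proliferation, activin is known for its part in wound repair, and BMPs are known for theirs in the hair follicle cycle.

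Expression was measured on Affymetrix arrays in 12 samples with a title prefix of B6. They were taken without wounding (4 samples) and 0 h (1), 30 min (2), 2 h (4) and 4 h (1) after it; the labels name no treatment, transgene or allele, and give neither age nor sex. The sample labels call the material dendritic epidermal T cells, whereas RNA of the whole epidermis is what the series' design describes. Without wounding, Lgals7 (a keratinocyte galectin) averaged 12.08 ± 0.27 on the log2 scale (SD, n = 4). The 5 measured T cell markers averaged 2.38 ± 0.12 for Klrk1, 2.47 ± 0.17 for Cd69, 5.09 ± 0.29 for Il2rb, 5.32 ± 0.11 for Itgae and 6.48 ± 0.31 for Il2rg (SD, n = 4 each). Levels of different probe sets cannot be compared, so these values do not give the share of either cell type.

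The 5 samples numbered 1 in the titles, 1 per group, stood apart from the 7 numbered 2 to 4. Their values spread less over probe sets (SD 1.55 to 1.85, against 2.19 to 2.30). The first principal component over all samples held 66.9% of the variance. Among the members, the non-wounded sample numbered 1 lay below all 3 other non-wounded samples for 12 probe sets and above all 3 for 21, where the shares over all probe sets were 30.7% and 53.5%. The gap reached 2.69 below for Bmp3 and 0.98 above for Gdf9 on the log2 scale (number 1 minus the mean of numbers 2 to 4: -2.69 and 0.98). The 0 h and 4 h groups held a sample numbered 1 alone, so time and sample number cannot be told apart there. The main results are therefore given for all samples and for the samples numbered 2 to 4 by themselves. Samples of like number are called pairs below, though the labels do not state a pairing.

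Promoters from RefSeq (GRCm38.p6) are shown for the receptor genes whose 2 h values are described below: Tgfbr2 and Tgfbr1, which form the TGF-beta receptor pair, and Acvr2b, an activin type II receptor. Each line gives the 250 bases before the gene's start, 5′ to 3′ on the gene's strand, with capitals marking the Smad-binding letters CAGAC and the CCAAT box, read on both strands.
Tgfbr2: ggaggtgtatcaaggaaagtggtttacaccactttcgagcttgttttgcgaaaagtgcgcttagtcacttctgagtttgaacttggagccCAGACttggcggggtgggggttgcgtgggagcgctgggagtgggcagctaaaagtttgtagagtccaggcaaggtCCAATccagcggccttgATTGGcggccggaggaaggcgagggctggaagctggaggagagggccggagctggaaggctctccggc
Tgfbr1: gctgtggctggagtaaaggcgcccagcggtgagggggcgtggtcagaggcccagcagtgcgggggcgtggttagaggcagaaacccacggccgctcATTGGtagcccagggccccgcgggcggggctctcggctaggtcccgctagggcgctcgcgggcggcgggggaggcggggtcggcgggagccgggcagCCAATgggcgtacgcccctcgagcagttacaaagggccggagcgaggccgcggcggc
Acvr2b: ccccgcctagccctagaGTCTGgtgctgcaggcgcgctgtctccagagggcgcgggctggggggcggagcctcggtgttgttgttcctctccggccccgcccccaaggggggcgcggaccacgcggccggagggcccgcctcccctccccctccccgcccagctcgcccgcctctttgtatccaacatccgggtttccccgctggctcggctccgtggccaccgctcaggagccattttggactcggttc
The windows lie at chr9:116175364-116175613 (minus strand), chr4:47352972-47353221 (plus strand) and chr9:119401928-119402177 (plus strand). The Tgfbr2 window held CAGAC at bases 91 to 95 and CCAAT boxes at bases 166 to 170 and, reversed, 183 to 187, counted from 1 at the 5′ end. The Tgfbr1 window, the more upstream of 2 in the table, held CCAAT boxes at bases 97 to 101, reversed, and 194 to 198, and no CAGAC. The other Tgfbr1 window (chr4:47385966-47386215, plus strand), which is not printed, held CAGAC at bases 48 to 52. In the Acvr2b window the capitals at bases 18 to 22 are CAGAC on the opposite strand. These letters are common: 42.2% of 32851 mouse windows of this length held CAGAC and 33.8% held CCAAT. The other motifs searched, on both strands, were the GC box GGGCGG (32.7% of windows), the AP-1 site TGANTCA (6.75%) and an NF-kappaB site (1.41%), and none of the printed windows held an AP-1 or NF-kappaB site by these letters. A promoter entry was found for 25 of the 38 genes.

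The main question was which members differed between skin at 2 h after wounding and non-wounded skin. The secreted antagonists Fst and Nog, the ligand Bmp2 and the receptor gene Tgfbr2 had higher mean values at 2 h, and Acvr2b a lower one, but none passed the test over all 12 samples. With limma and Benjamini-Hochberg adjustment over 1246 probe sets, 0 of 40 members were called at 2 h, where the share over all probe sets was 0.241%. At an unadjusted p under 0.05 the limma fit held 1 member, Nog (4.65% of all probe sets). With the sample number as a block, again 0 of 40 were called (1.36% of all) and 6 had an unadjusted p under 0.05 (13.8% of all). In the samples numbered 2 to 4 alone, 1 of 40 was called, Fst (3.05% of all), and 9 had an unadjusted p under 0.05 (18.5% of all). In bulk samples, a different number of cells of a type and a different amount of RNA per cell cannot be told apart.

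Follistatin gave the largest mean difference of the 40 at 2 h, over all samples and in the samples numbered 2 to 4. Fst had log2 values of 3.93, 6.80, 7.04 and 6.25 in the 2 h samples numbered 1 to 4, against 4.35, 5.20, 5.65 and 5.60 in the non-wounded samples numbered 1 to 4. The 2 h samples numbered 2 to 4 lay above all 4 non-wounded samples, and the 2 h sample numbered 1 lay below them all. Over all samples Fst averaged 6.01 ± 1.42 at 2 h and 5.20 ± 0.60 without wounding (SD, n = 4 each), a 1.75-fold higher mean (log2 difference 0.81 ± 0.63 SE, limma adjusted p = 0.998). Blocking on the number gave a limma adjusted p of 0.366. An exact two-sided permutation test of the 4 against 4 samples gave p = 0.3429, where 0.0286 is the smallest p that the 70 splits allow.
In the samples numbered 2 to 4 Fst rose 2.32-fold, to a mean log2 value of 6.70 ± 0.41 at 2 h, against 5.48 ± 0.24 without wounding (SD, n = 3 each; log2 difference 1.22 ± 0.22 SE, limma adjusted p = 0.0392). The limma adjusted p for Fst ran from 0.00727 with array weights to 1.0 with repeated quantile normalization. Without the 2 h sample numbered 1 the log2 difference was 1.50 (limma adjusted p = 0.165). That fit kept the non-wounded sample numbered 1, which at 4.35 was the lowest of its group. After every sample had been scaled to a common median and SD, Fst had a log2 difference of 0.64 ± 0.63 (SE, limma adjusted p = 0.984), with 3 of 4 pairs of like-numbered samples higher at 2 h. On that scale the differences of Bmp2 (0.73) and the first Tgfbr2 probe set (0.72) were larger than that of Fst. The scaling left 0 of 40 members called by limma (0.321% of all probe sets).

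Nog differed less but more evenly. Its log2 values were 4.39, 4.74, 4.68 and 4.51 at 2 h, against 4.10, 4.32, 4.24 and 4.09 without wounding, in the order of the sample numbers. All 4 samples at 2 h lay above all 4 non-wounded samples, and the like-numbered differences were 0.29, 0.42, 0.44 and 0.42. The mean log2 difference was 0.39 ± 0.15 (SE, limma adjusted p = 0.789, and 0.244 once blocked), and 0.43 ± 0.10 without the samples numbered 1 (adjusted p = 0.098). Over its alternatives the limma adjusted p for Nog ran from 0.0065 with array weights to 1.0.
On the scale with one median and SD the difference was 0.30 ± 0.15 (SE, limma adjusted p = 0.927) and the groups overlapped. Without an overlap as deposited stood 2 of the 40 probe sets, Nog and the first Gdf3 probe set, all 4 above (2.01% of all probe sets), and 0 lay all 4 below (2.73%). Chrd, the remaining antagonist, had log2 values of 4.32, 3.43, 3.50 and 3.45 at 2 h, against 4.13, 3.42, 3.28 and 3.05 without wounding. Each pair was higher at 2 h, by 0.19, 0.01, 0.22 and 0.40, and the groups overlapped (log2 difference 0.21 ± 0.36 SE, limma adjusted p = 0.998).

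**Figure D1:**
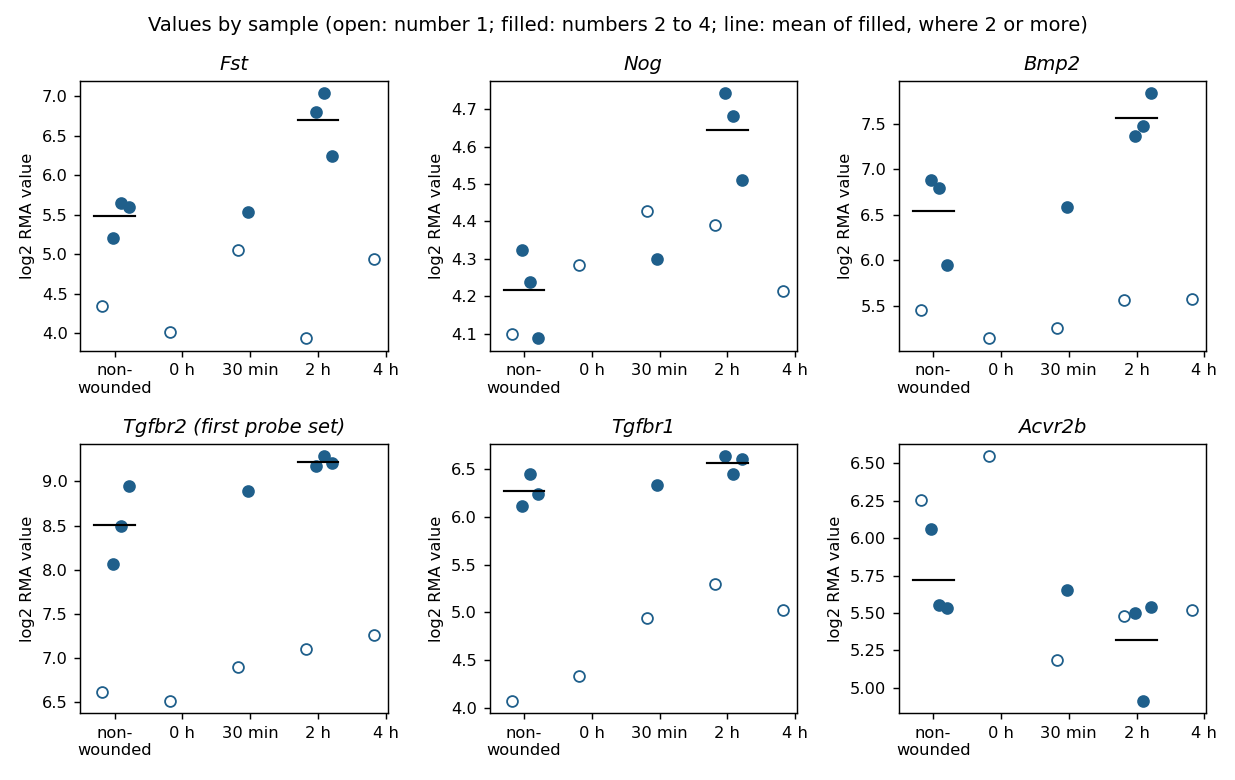
Log2 RMA values of 6 members (vertical axis) in each of the 12 samples, by group (horizontal axis); open circles are the samples numbered 1, filled circles those numbered 2 to 4, and lines the means of filled circles where a group has several. For Fst the filled 2 h samples, at 6.25 to 7.04, lie above the filled non-wounded samples, at 5.20 to 5.65, while the open 2 h sample is at 3.93.

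Among the ligands, Bmp2 had the largest mean difference. Bmp2, a ligand of the BMP receptors, had log2 values of 5.56, 7.37, 7.47 and 7.84 at 2 h, against 5.45, 6.89, 6.79 and 5.94 without wounding. In each pair the 2 h sample was higher, by 0.11, 0.48, 0.68 and 1.89, and the samples numbered 2 to 4 did not overlap between the groups. The 1.73-fold difference of the means (log2 0.79 ± 0.54 SE) had a limma adjusted p of 0.998, and of 0.239 with the block. Numbers 2 to 4 alone gave 2.02-fold (log2 1.02 ± 0.27 SE, limma adjusted p = 0.116). The largest of the 4 pair differences, that of number 4, came with the lowest non-wounded value among numbers 2 to 4.
Of the 10 BMP ligands, 7 had a higher and 3 a lower mean at 2 h, against 54.5% and 45.5% of all probe sets. Of these ligands 0 were called (0.241% of all probe sets). Apart from Bmp2 their log2 differences ran from -0.35 (Bmp7) to 0.26 (Bmp10). Bmp7, another BMP of epithelia, was lower by 1.18 in the pair numbered 1 but by only 0.08 on the log2 scale in the means of numbers 2 to 4 (differences -1.18 and -0.08). Bmp8a and Bmp8b are close paralogs whose probes may not separate them fully.

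None of the 3 TGF-beta ligands was called at 2 h. Tgfb1, the form best known in wound repair, had log2 values of 6.59, 6.76, 6.77 and 7.35 at 2 h, against 6.77, 6.95, 6.77 and 6.67 without wounding. Its groups overlapped (log2 difference 0.08 ± 0.36 SE, limma adjusted p = 0.998). Tgfb3 was lower in every pair, with differences of -0.49, -0.22, -0.30 and -0.02 (2 h minus non-wounded), with log2 values of 4.58, 5.17, 5.44 and 5.18 at 2 h, against 5.06, 5.39, 5.74 and 5.20. Tgfb2 was also lower in every pair, with differences from -0.27 to -0.04. The mean Tgfb3 difference was -0.26 ± 0.22 (SE, limma adjusted p = 0.998, and 0.534 with the block).

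Of the 10 GDF probe sets 8 had a higher and 2 a lower mean at 2 h, against 54.5% and 45.5% of all probe sets. Their log2 differences ran from -0.06 to 0.33, and 0 were called (0.241% of all). The median GDF difference was 0.08 as deposited and -0.03 after scaling, so the upward lean did not hold on that scale. The GDF probe sets lay low on the arrays, with non-wounded means between 2.50 and 4.96 on the log2 scale in the samples numbered 2 to 4. The first Gdf3 probe set had log2 values of 3.87, 3.54, 3.50 and 3.42 at 2 h, against 3.38, 3.32, 3.10 and 3.20 without wounding. All 4 samples at 2 h lay above the non-wounded ones as deposited, by a mean of 0.33 ± 0.16 (SE, limma adjusted p = 0.998, and 0.310 with the block), but not after scaling, where 0 of the 40 lay all 4 above (1.61% of all probe sets) and 1, Bmp5, all 4 below (4.74%). The second Gdf3 probe set, whose identifier has the suffix that Affymetrix gives to probes that also match other transcripts, differed by 0.17 ± 0.33 (SE, adjusted p = 0.998). Gdf11 was higher in 4 of 4 pairs, by 0.03 to 0.53. The subunit genes Inhbc and Inhbe differed by -0.02 and -0.09, and the subunits of the activins best known in skin were not among the named probe sets.

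Among the receptors, the first of the 2 Tgfbr2 probe sets and Tgfbr1 had higher values at 2 h in every pair, though Tgfbr1 in the pair numbered 3 by a margin that rounds to 0.00. The first Tgfbr2 probe set had log2 values of 7.10, 9.17, 9.29 and 9.21 at 2 h, against 6.62, 8.06, 8.50 and 8.95 without wounding. The like-numbered differences were 0.49, 1.11, 0.79 and 0.26, and the samples numbered 2 to 4 did not overlap between the groups. The mean difference was 0.66 ± 0.67 (SE, limma adjusted p = 0.998), 0.66 ± 0.16 with the block (adjusted p = 0.122) and 0.72 ± 0.21 in the samples numbered 2 to 4 (adjusted p = 0.156).
The second Tgfbr2 probe set read 3.75, 4.36, 4.47 and 4.56 at 2 h, against 4.42, 4.25, 4.21 and 4.22. Its pairs differed by -0.68, 0.11, 0.26 and 0.34, so the probe sets of this gene disagreed in the pair numbered 1 and ran the same way in the other pairs. Its mean log2 difference was 0.01, and -0.12 after scaling. Tgfbr1, which was picked for description after its values were seen, had log2 values of 5.30, 6.64, 6.45 and 6.61 at 2 h, against 4.07, 6.12, 6.45 and 6.25 without wounding. Its pair differences were 1.23, 0.52, 0.00 and 0.36. The mean difference of 0.53 ± 0.57 (SE) had a limma adjusted p of 0.998, and of 0.284 with the block.

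Acvr2b ran the other way. Its log2 values were 5.48, 5.50, 4.91 and 5.54 at 2 h, against 6.25, 6.06, 5.55 and 5.53 without wounding. In the pairs numbered 1 to 3 it was lower at 2 h, with differences of -0.77, -0.57 and -0.64, and the pair numbered 4 differed by 0.01. The mean difference was -0.49 ± 0.24 (SE, limma adjusted p = 0.998, and 0.273 with the block), and -0.40 ± 0.22 without the samples numbered 1 (adjusted p = 0.381). The paralog Acvr2a differed by 0.12. The type I receptor genes Acvr1 and Acvrl1 differed by -0.18 and -0.09. The BMP receptors Bmpr1a, Bmpr1b and Bmpr2 differed by -0.14, 0.09 and -0.06, and the coreceptor Tgfbr3, which presents TGF-beta to its receptors, by 0.10. Over its pairs Tgfbr3 was split, with 0.49 and 0.62 in numbers 1 and 2 and -0.31 and -0.38 in numbers 3 and 4. Bmp1, which despite its name is a proteinase that trims procollagen and chordin, differed by -0.03.

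**Figure D2:**
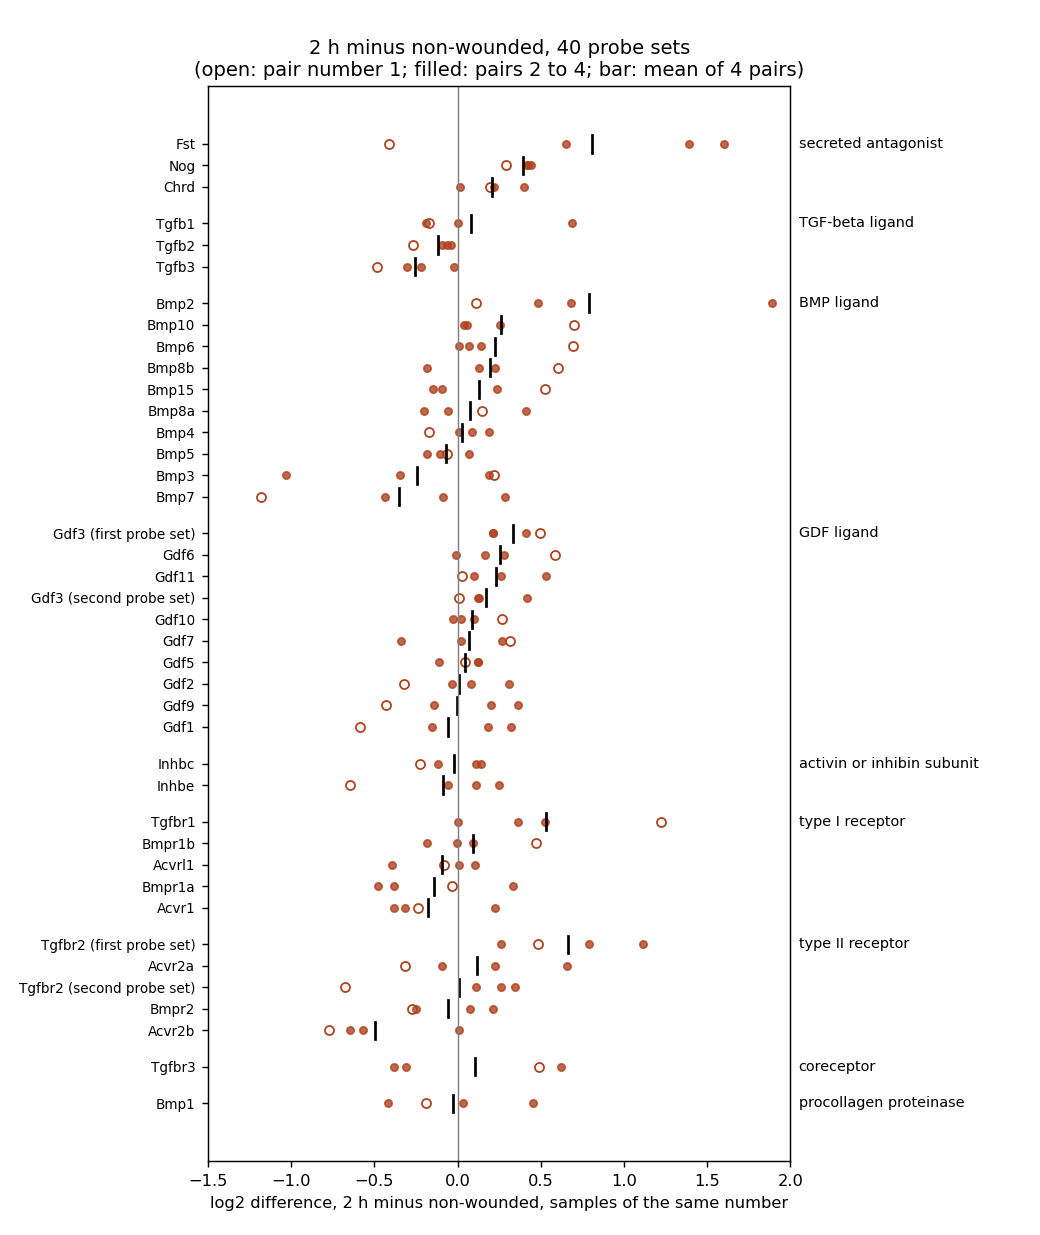
Log2 difference, 2 h minus non-wounded, between samples of the same number (horizontal axis) for the 40 probe sets, grouped by role; open circles are the pair numbered 1, filled circles pairs 2 to 4 and bars the mean of the 4 pairs. Fst has filled circles at 0.65 to 1.60 and its open circle at -0.41, Nog has 4 circles between 0.29 and 0.44, and Acvr2b has 3 of 4 below 0.

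Over the whole set, 25 members had a higher and 15 a lower mean at 2 h, against 54.5% higher and 45.5% lower over all probe sets. In the samples numbered 2 to 4 the counts were 27 and 13, against 55.5% and 44.5%, and after scaling 20 and 20, against 36.7% and 63.3%. The median log2 difference was 0.07 over the 40 members and 0.03 over all 1246 probe sets. After scaling the median was -0.0046 over the members and -0.06 over all probe sets. In 4 of 4 pairs 10 members were higher (13.4% of all probe sets) and 2 were lower (11.6%). After scaling it was 6 higher (7.46%) and 6 lower (249 of all 1246 probe sets). On both scales 6 members kept that direction upward (6.26% of all), namely Bmp2, Gdf11, the second Gdf3 probe set, Nog, Tgfbr1 and the first Tgfbr2 probe set, and Tgfb2 and Tgfb3 kept it downward (10.8% of all). Without number 1, 11 members did not overlap between the groups with 2 h above (14.7% of all) and 0 with 2 h below (10.4%).

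Marker genes of several cell types were set beside these values. The mean log2 level of 4 of 9 listed Langerhans cell markers (Cd207, Cd83, Cd74, Ly75) was 6.34 to 7.58 at 2 h, against 6.31 to 6.80 without wounding. Among numbers 2 to 4, where Fst was called, it was 7.24 to 7.58 at 2 h, against 6.49 to 6.80, without overlap. The 4 genes did not all rise. Over all samples Cd83 averaged 5.64 ± 0.98 at 2 h and 4.14 ± 0.27 without wounding, and Cd207 8.77 ± 0.74 and 7.86 ± 0.63. Ly75 averaged 3.51 ± 0.22 and 3.44 ± 0.26, and Cd74 was lower, at 10.67 ± 0.74 and 10.78 ± 0.45 (SD, n = 4 each). For 7 of 10 dermal fibroblast markers the mean log2 level was 3.65 to 3.99 at 2 h, against 3.36 to 3.72. In the samples numbered 2 to 4 it was 3.65 to 3.80, against 3.36 to 3.50, again without overlap. For 3 of 9 endothelial markers it was 3.08 to 3.61 at 2 h, against 2.95 to 3.25. Of the genes on the neutrophil list, the cytokine gene Il1b averaged 4.96 ± 0.64 at 2 h and 3.70 ± 0.25 without wounding. Csf3r averaged 3.23 ± 0.34 and 2.86 ± 0.15, and Cxcr2 4.31 ± 0.63 and 4.29 ± 0.62 (SD, n = 4 each). For 3 of 11 keratinocyte markers the mean log2 level was 9.01 to 10.53 at 2 h, against 9.46 to 10.56. The lists for T cells (5 of 11) and macrophages (4 of 7) had mean differences of -0.06 and -0.09. The part of these cell types in the member values was not tested. RMA values hold no zero, so no marker can be called absent.

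The second comparison concerned the early samples, 30 min after wounding, against the non-wounded samples. Tgfb1 had the smallest p, with a low value in 1 of its samples. With limma 0 of 40 members were called at 30 min (0.0% of all probe sets), also with the block (0.0%), and 1 had an unadjusted p under 0.05 (5.06% of all; with the block 3, against 10.9%). Higher means were found for 26 members and lower ones for 14, against 53.8% and 46.2% of all probe sets. Tgfb1 had log2 values of 4.84 and 6.72 at 30 min in the samples numbered 1 and 2, against 6.77, 6.95, 6.77 and 6.67 without wounding. The sample numbered 1 lay far below the rest and the other inside their range. The log2 difference was -1.01 ± 0.44 (SE, limma adjusted p = 0.735, and 0.446 with the block). It was -0.07 without the 30 min sample numbered 1, and -1.95 without the one numbered 2 (limma adjusted p = 0.0375, range 0.0375 to 1.000 over alternatives). That fit leaves 1 sample at 30 min, assumed to vary like the other groups, so the value rests on 1 array.

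Gdf10, Chrd and Bmp5 showed the same division between the samples at 30 min. Gdf10, a GDF related in sequence to Bmp3, had log2 values of 4.89 and 2.87 at 30 min, against 3.56, 2.81, 2.80 and 2.76 without wounding. The higher value is that of the sample numbered 1, and the non-wounded sample numbered 1 is likewise the highest of its group (log2 difference 0.90 ± 0.53 SE, limma adjusted p = 0.735). Chrd read 4.87 and 3.48, against 4.13, 3.42, 3.28 and 3.05 (0.71 ± 0.44, limma adjusted p = 0.735). Bmp5 read 4.61 and 3.17, against 3.73, 3.38, 3.24 and 3.15. In the same fit, with 1 sample at 30 min, 3 members were called, namely Bmp5, Gdf10 and Tgfb1 (5.94% of all probe sets).
Tgfb3 differed in the same direction in both pairs, by -0.12 and -0.56. Its log2 values were 4.94 and 4.84 at 30 min, against 5.06, 5.39, 5.74 and 5.20 without wounding, so both lay below all 4 non-wounded samples (log2 difference -0.46 ± 0.27 SE, limma adjusted p = 0.735). In the samples numbered 2 to 4, where a lone 30 min sample is assumed to vary like the other groups, Tgfb3, Tgfb2 and the first Gdf3 probe set had an unadjusted limma p under 0.05, that is 3 of 40 (4.41% of all), and 0 were called (0.0%). Both pairs were higher at 30 min for 15 members (23.8% of all probe sets) and both were lower for 10 (30.8%).
Fst had log2 values of 5.06 and 5.54 at 30 min. They lay inside the non-wounded range of 4.35 to 5.65, but above the non-wounded sample of the same number by 0.71 and 0.34. The group means differed by 0.10 ± 0.77 (SE, limma adjusted p = 0.962), and by 0.63 ± 0.47 with the block (adjusted p = 0.592).

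**Figure D3:**
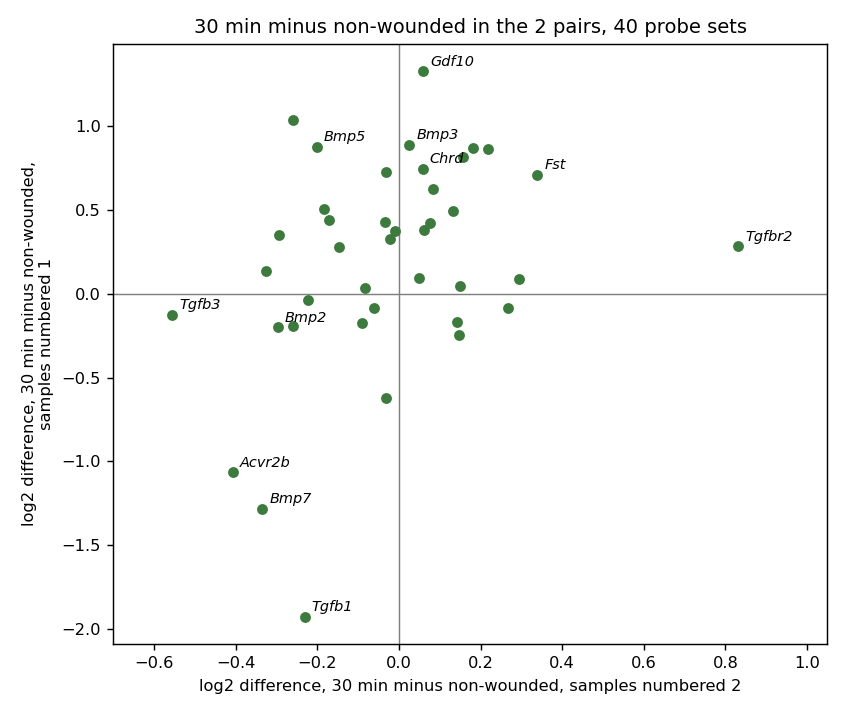
Log2 difference, 30 min minus non-wounded, in the samples numbered 2 (horizontal axis) and numbered 1 (vertical axis) for the 40 probe sets, 1 point each; the axes differ in range. Tgfb1 lies at -1.93 in the samples numbered 1 and -0.23 in those numbered 2, Gdf10 at 1.33 and 0.06, and the first Tgfbr2 probe set at 0.28 and 0.83.

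The third comparison set the 2 h samples against the 30 min samples. Tgfb1 and Bmp2 had higher means at 2 h, and Bmp5 and Inhbe lower ones. With limma 0 of 40 members were called (0.0% of all probe sets), and 1, Tgfb1, had an unadjusted p under 0.05 (2.17% of all; with the block likewise 1, against 5.38%). Of the 40, 18 were higher and 22 lower at 2 h, against 50.6% and 49.4% of all probe sets. After scaling 0 were called (0.0803% of all). The Tgfb1 difference of 1.09 ± 0.44 (SE, limma adjusted p = 0.980) turned on the same 30 min sample: it was 0.15 without that sample and 2.03 without the 30 min sample numbered 2, where Tgfb1 was called (adjusted p = 0.0471, range 0.0471 to 1.000 over alternatives; 0.241% of all probe sets were called). There too the lone 30 min sample is assumed to vary like the other groups. Bmp2 had log2 values of 5.56, 7.37, 7.47 and 7.84 at 2 h, against 5.25 and 6.59 at 30 min. Both like-numbered pairs were higher at 2 h, by 0.31 and 0.78 (group difference 1.14 ± 0.67 SE, limma adjusted p = 0.980).
Bmp5 read 3.67, 3.19, 3.13 and 3.22 at 2 h, against 4.61 and 3.17 at 30 min (difference -0.59 ± 0.37 SE, limma adjusted p = 0.980). Inhbe, the gene of an activin subunit best known from liver, read 3.20, 2.99, 2.95 and 3.00 at 2 h, against 4.27 and 3.01 at 30 min (difference -0.60 ± 0.38 SE, limma adjusted p = 0.980). For both, the higher 30 min value is that of the sample numbered 1.
Fst differed by 0.71 ± 0.77 between 2 h and 30 min (SE, limma adjusted p = 0.980), and by -1.12 and 1.26 in the pairs numbered 1 and 2. In the samples numbered 2 to 4 the 3 samples at 2 h lay above the one at 30 min (difference 1.16 ± 0.31 SE, limma adjusted p = 0.440, with the spread of the lone 30 min sample taken from the other groups; 0.161% of all probe sets were called in that fit). Fst and Bmp2 were the 2 members with an unadjusted limma p under 0.05 there (5.14% of all). The 2 h comparisons share their 2 h samples, and those with the non-wounded samples share the controls, so their values are not independent.

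The 0 h and 4 h groups had 1 sample each, both numbered 1, and were described without a test. Against the mean of the 4 non-wounded samples, 8 members were lower by 1 or more on the log2 scale at 0 h (10.8% of all probe sets) and 7 at 4 h (20.7%). Against the non-wounded sample numbered 1 these counts were 0 (0.562%) and 1 (8.51%). Fst had a log2 value of 4.01 at 0 h, which was -1.19 from the non-wounded mean and -0.33 from the sample numbered 1, and of 4.95 at 4 h, which was -0.25 and 0.60 from them. Nog had 4.28 at 0 h and 4.21 at 4 h, both inside the non-wounded range of 4.09 to 4.32.
At 4 h Bmp4, a BMP of the dermis, read 4.49, below the non-wounded sample numbered 1 by 1.57 on the log2 scale (difference -1.57) and below all 4 non-wounded samples. Bmp3 at 4 h was 1.39 above that sample and was the 1 member higher by 1 or more (3.29% of all probe sets). The non-wounded sample numbered 1 had the lowest Bmp3 value of its group. The 4 h value lay inside the non-wounded range of 3.61 to 6.82 and was -0.62 from the non-wounded mean. At 0 h Bmp3 was likewise 0.98 above the sample numbered 1. After scaling, 4 members were higher than that sample by 1 or more at 4 h (6.5% of all probe sets). Tgfb1 read 6.61 at 0 h and 5.77 at 4 h, both under the lowest non-wounded value, 6.67. Of the 5 samples numbered 1, those at 30 min and 4 h thus had the lowest Tgfb1 values.

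Other genes of the pathway came from lists of symbols outside the naming rule. Of 29 listed target genes 8 were measured; with limma 6 were higher and 2 lower at 2 h, and 0 were called, while 2 were called with the block. Over all probe sets 54.5% were higher, 0.241% were called and 1.36% were called with the block. Vegfa, an angiogenic factor, rose with the block (log2 difference 1.23, adjusted p = 0.0265, against 0.087 without it and 0.00276 in the samples numbered 2 to 4). It had log2 values of 3.73, 4.56, 4.54 and 4.91 at 2 h, against 3.05, 3.35, 3.29 and 3.13. Junb, an AP-1 subunit induced early by many stimuli, also rose with the block (1.74, adjusted p = 0.0448, against 0.354 without and 0.0178 in those samples). It read 8.76, 9.69, 9.28 and 10.07 at 2 h, against 7.34, 8.26, 7.71 and 7.52. Both genes respond to signals other than TGF-beta.
Of 19 listed extracellular binders and inhibitors 3 were measured (Bgn, Dcn and Fmod, proteoglycans that bind TGF-beta), all 3 were higher at 2 h and 0 were called. All 3 are also among the dermal fibroblast markers given above, so both lists share these values. Dcn differed by 0.60 ± 0.30 and Fmod by 0.55 ± 0.31 (SE, limma adjusted p = 0.998 for each, and 0.238 and 0.232 with the block). Of 11 intracellular regulators 1 was measured, the phosphatase gene Ppm1a, which differed by -0.06. None of the 13 listed activators of latent TGF-beta or of the 8 further coreceptors was among the named probe sets.

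The genes whose values most resembled those of Fst were sought among 908 other named genes over the 7 samples numbered 2 to 4. The highest Pearson correlations were those of Cks2, a cyclin-dependent kinase subunit (0.938), the glycosyltransferase genes Mgat4a (0.933), St8sia4 (0.930) and B3galt5 (0.920), and the neutrophil chemokine Cxcl2 (0.928). The lowest were those of Lamp1, a lysosomal membrane protein (-0.942), the fucosyltransferase Fut1 (-0.918) and the vessel growth factor Angpt1 (-0.918). Over all 12 scaled samples the correlation was 0.883 for Cks2, 0.827 for St8sia4 and 0.751 for Cxcl2, but 0.481 for B3galt5, -0.334 for Mgat4a and 0.400 for Lamp1. For Fut1 and Angpt1 it was -0.462 and -0.413.
In the samples numbered 2 to 4 Cxcl2 averaged 6.68 at 2 h, against 2.88 without wounding, and Cks2 9.14, against 7.93. Among the members the correlation with Fst was 0.878 for Nog, 0.806 for the first Tgfbr2 probe set, 0.757 for Tgfbr1, 0.671 for Bmp2 and -0.821 for Acvr2b. These members had already been described for their 2 h values. For the other member genes it ran from -0.570 (Bmp5) to 0.612 (Gdf6), with 0.053 for Tgfb1, 0.143 for Bmp4 and -0.036 for Bmpr1a. All these correlations are descriptions over 7 points that share the division into 2 h and earlier samples.

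**Figure D4:**
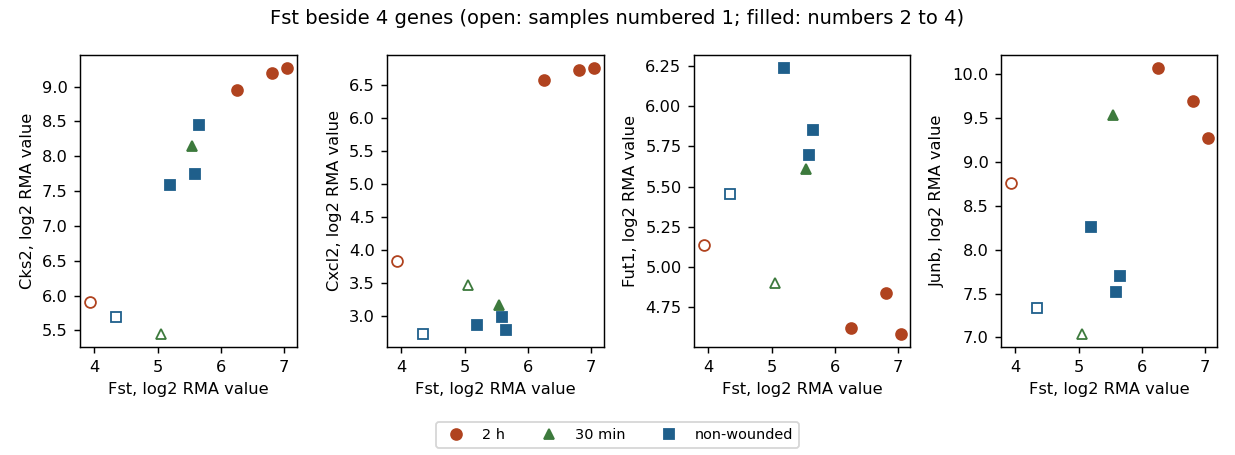
Log2 RMA values of Cks2, Cxcl2, Fut1 and Junb (vertical axes) against Fst (horizontal axis) in the 2 h, 30 min and non-wounded samples; open symbols are the samples numbered 1. The filled 2 h samples lie apart from the filled non-wounded ones on both axes in each panel, and the open 2 h sample has the lowest Fst value, 3.93.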

How the data were processed

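Total RNA was extracted with Trizol and turned into biotinylated cRNA for Affymetrix arrays, per the labels' protocols. The deposited values are log2 expression of 1246 probe sets, made with RMA per the submitters' processing notes; the sources used here give neither array type nor software version. No detection call comes with RMA. Precision is limited by how many arrays there are. Of 984 probe sets with a RefSeq accession, 963 were named through the RefSeq table of GRCm38.p6.

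The main test was limma 3.58.1 (R 4.3.3) on all 12 samples with group means; p-values were adjusted by Benjamini and Hochberg's method across the 1246 probe sets, and calls made at 0.05. Fits were tested on simulated data. Sequence and figure steps used Python 3.11.15, scipy 1.17.1 and matplotlib 3.10.9. The labels do not state that replicates are separate mice, so a p-value may cover technical spread alone. Deviations of like-numbered 2 h and non-wounded samples from their group means correlated at 0.796, 0.449, 0.651 and 0.297 for numbers 1 to 4. All were over 0.1, so the numbers were treated as pairs. The group means include the samples numbered 1, whose shift enters every deviation. These correlations therefore cannot show a pairing of numbers 2 to 4. Without the samples numbered 1 the correlations were -0.150, 0.0727 and -0.319 for numbers 2 to 4. All of these lay under 0.1, so numbers 2 to 4 by themselves did not meet that limit. The labels do not state a pairing.

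The members and gene lists were chosen with earlier results of these data known. Values in every sample are given for Fst. For the 4 members with the smallest p per comparison and those called in any fit, values are given in the samples of the groups compared. Of each related list, the 2 with the smallest p at 2 h and any called are named. For likeness to Fst, the 5 highest and 3 lowest correlations are given. Alternatives were scaling to one median and SD, repeated quantile normalization, median centring, fixed and random replicate blocks, a term for number 1, numbers 2 to 4 alone, leaving out probe sets under the 25 percentile, array weights, a robust variance prior with intensity trend, the compared groups alone, a threshold of 0.01 and leaving out each sample. A result on a marker list is not reported here.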

Additional observations from a re-analysis of the deposited data

Results flagged for a closer look

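For 16 of 80 groups of 4 samples, 1 sample lay far from the other 3 by Dixon's test. By chance the test marks about 1 in 20 groups, but these groups all came from the same arrays. Of the 16, 15 were samples numbered 1. Over all probe sets the non-wounded sample numbered 1 lay below the other 3 for 30.7% and above them for 53.5%. The share marked over all probe sets is not given, so the count is not read as a result about the members. At 2 h, the sample numbered 1 was low for Acvr1 (4.25), Bmp7 (5.05), Tgfbr1 (5.30) and the first Tgfbr2 probe set (7.10). It was high for Bmp5 (3.67), Bmp6 (5.19), Bmp8b (4.27), Bmp10 (4.44), Chrd (4.32), Gdf6 (3.55) and Gdf10 (3.83). Of the non-wounded samples, the one numbered 1 was low for Tgfbr1 (4.07) and high for Bmp6 (4.50), Gdf5 (3.93) and Gdf10 (3.56). The remaining case was Acvr2b in the 2 h sample numbered 3 (4.91, low). All are log2 values.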

How the results depend on the processing

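The number of members called at 2 h against non-wounded was 0 over all samples, with the replicate block, after each rescaling and in each fit that left out 1 sample. It was 1 once the samples numbered 1 were dropped and 5 with array weights (Bmp2, Fst, the first Gdf3 probe set, Nog and the first Tgfbr2 probe set; 10.4% of all probe sets). Leaving out 1 sample gave 0 to 3 called at 30 min against non-wounded and 0 to 1 at 2 h against 30 min. The log2 difference of Fst at 2 h was 1.22 in the samples numbered 2 to 4 (limma adjusted p = 0.0392), 1.16 with array weights (0.00727) and 0.46 to 1.50 when 1 sample was left out. At 30 min against non-wounded, Fst turned to -0.26 with array weights and ranged from -0.18 to 0.34 when 1 sample was left out. At 2 h against 30 min, Fst turned to -0.078 with the replicate block and scaling together, and ranged from 0.36 to 1.40 when 1 sample was left out. Without the 30 min sample numbered 1, Gdf10 at 30 min turned to -0.11 (range up to 1.91 over samples left out), and at 2 h against 30 min Bmp5 turned to 0.13 (down to -1.31) and Inhbe to 0.025 (down to -1.23). Bmp5 turned to 0.0092 in the samples numbered 2 to 4. The cause was not tested. The replicate block changed no call on a member. Over all members and alternatives at 2 h against non-wounded, 686 values kept their direction and side of the threshold, 105 changed sign and 6 passed the threshold anew. The counts were 579, 135 and 3 at 30 min against non-wounded and 598, 118 and 1 at 2 h against 30 min. Of the 40 probe sets 19 had a mean log2 value under 4, where background limits what arrays show.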
